A study of Mus musculus with 3 samples.

Results

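The genes described here are the CCN family (Ccn1 to Ccn5) and 5 genes around the transcriptional coactivator YAP (Yap1, Wwtr1, Tead1, Ankrd1 and Amotl2). They are 10 of the 18193 genes that the array platform names, and were chosen by name. All probe sets annotated to them were used, 20 of 45101. Older symbols of the CCN genes are Cyr61, Ctgf, Nov, Wisp1 and Wisp2. The samples were primary cultures of mouse ocular pigment epithelium from C57BL/6 donors aged 6 to 8 weeks: iris (IPE), ciliary body (CBPE) and retina (RPE), with 1 array each. IPE and CBPE were cultured in RPMI 1640 with 10% fetal bovine serum and RPE in DMEM with 20%, and all spent the last night before RNA extraction without serum. The labels give no genotype, transgene or drug treatment, state that CBPE and RPE were stained for cytokeratin after 14 days of culture, with no time for IPE, and do not say how many animals or cultures each array pooled. Medium and tissue of origin cannot be told apart in a comparison with RPE.

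CCN proteins are secreted, cysteine-rich matrix proteins built from modules shared with insulin-like growth factor binding proteins, von Willebrand factor and thrombospondin, and end in a cystine knot that Ccn5 lacks. They act on cells through integrins and heparan sulfate proteoglycans. YAP, encoded by Yap1, and its paralog TAZ, encoded by Wwtr1, carry no DNA-binding domain and reach DNA through TEAD factors such as Tead1. The Hippo kinases hold them in the cytoplasm in dense or softly attached cells. Ccn1, Ccn2, Ankrd1 and Amotl2 are widely used readouts of YAP and TAZ activity, and YAP is needed for the retinal pigment epithelium to form in the embryo.

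Since each culture has 1 array, the cultures cannot be tested against each other, and every value is a single measurement of deposited intensity, on a linear scale. A signal was counted as measured above a floor of 14.5 on the IPE array, 20.2 on the CBPE array and 16.8 on the RPE array, and a difference was counted from 2-fold. The spread that could be measured was that between probe sets of one gene, with an SD of the log2 difference of 0.49 for CBPE minus IPE, 0.45 for RPE minus IPE and 0.29 for RPE minus CBPE. It leaves out the spread between animals, cultures and hybridisations. The IPE array had the lowest brightest signal, 8441 against 19334 and 13849. The 12 probe sets for the bioC, bioD and cre hybridisation controls averaged (geometric mean) 1239 on the IPE, 3192 on the CBPE and 1941 on the RPE array, 2.58-fold and 1.57-fold above IPE. Its Actb control probe sets gave a 3′ to 5′ ratio of 1.5, against 2.26 and 2.25 for CBPE and RPE. Whatever is particular to the IPE array enters both comparisons with it.

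Of the 5 CCN genes, 4 differed between the cultures by more than 2-fold, and by more than the coactivator genes did. Ccn1, Ccn3, Ccn4 and Ccn5 and the target Amotl2 exceeded their iris signal at least 2-fold in CBPE, which is 5 of the 10 genes, and none was lower. Among all 12432 genes measured there, the shares were 12.2% higher and 12.5% lower. In RPE, Ccn3, Ccn4 and Ccn5 exceeded their iris signal at least 2-fold by the brightest probe set and none was lower, against 9.86% higher and 10.5% lower of all genes. Ccn1 was 1.74-fold above IPE there by its brightest probe set and past 2-fold by its 3 others. These 3 genes were above IPE by at least 2-fold in both other cultures, as were 6.28% of the 13035 genes above a floor on any array. Between RPE and CBPE, Ccn1 was lower in RPE by its brightest probe set and no gene was higher, against 4.38% lower and 3.42% higher of all genes. The median log2 difference of the 10 genes was 1.12 for CBPE minus IPE, 0.36 for RPE minus IPE and -0.41 for RPE minus CBPE, beside 0.033, 0.017 and -0.015 over all genes.

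**Figure D1:**
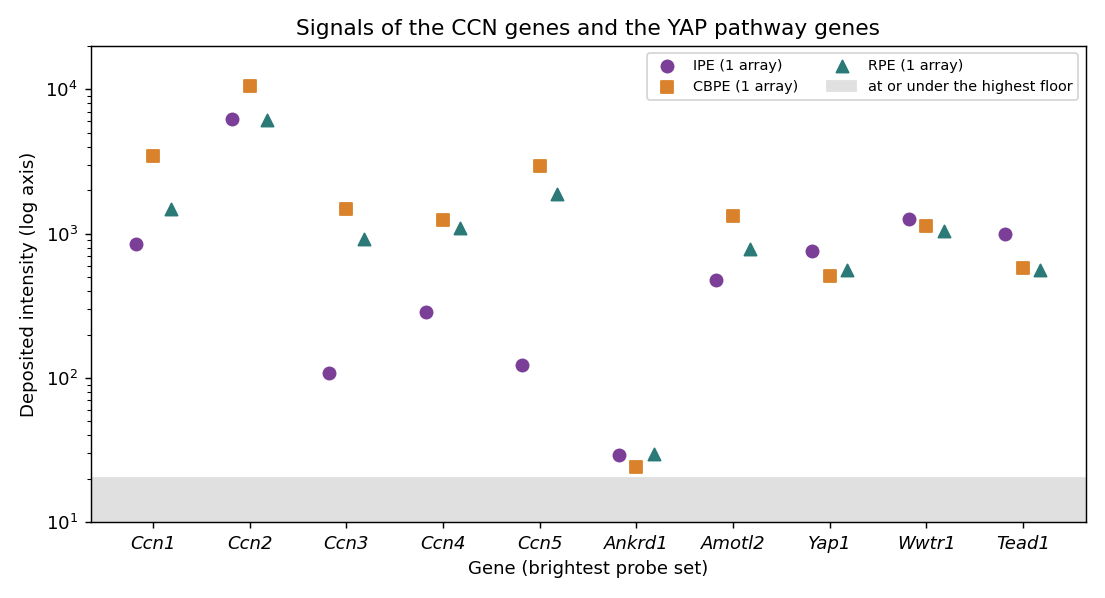
Deposited intensity (log axis) of the brightest probe set of each of the 10 genes on the IPE, CBPE and RPE arrays, 1 point per array. The shaded band ends at 20.2, the highest floor. Ccn3, Ccn4 and Ccn5 show IPE far under the other cultures, whereas the points of Yap1, Wwtr1 and Tead1 lie close together and those of Ankrd1 lie just above the band.

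Promoter sequences were read for the core motif of TEAD factors, through which YAP and TAZ reach DNA. Such sequences were on hand for 5 of the 10 genes: Ccn1, Ankrd1, Amotl2, Yap1 and Wwtr1. They come from RefSeq (GRCm38.p6) as windows of 300 bases, from 250 before to 50 after a transcription start. Capitals mark the core motif of TEAD factors, GGAATG, or CATTCC where it lies on the opposite strand. The 3 target genes are printed over the 250 bases before their start.
Ccn1, chr3:145649986-145650235, minus strand: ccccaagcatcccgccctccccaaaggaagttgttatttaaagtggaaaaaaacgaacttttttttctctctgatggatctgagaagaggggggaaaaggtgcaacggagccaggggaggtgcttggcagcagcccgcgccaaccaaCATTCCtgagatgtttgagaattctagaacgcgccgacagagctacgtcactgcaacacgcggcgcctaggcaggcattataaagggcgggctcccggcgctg
Amotl2, chr9:102717554-102717803, plus strand: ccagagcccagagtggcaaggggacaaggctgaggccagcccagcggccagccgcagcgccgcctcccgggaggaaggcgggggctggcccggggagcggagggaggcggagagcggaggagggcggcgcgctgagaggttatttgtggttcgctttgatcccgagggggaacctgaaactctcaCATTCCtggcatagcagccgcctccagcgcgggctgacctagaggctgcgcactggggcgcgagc
Ankrd1, chr19:36119845-36120094, minus strand: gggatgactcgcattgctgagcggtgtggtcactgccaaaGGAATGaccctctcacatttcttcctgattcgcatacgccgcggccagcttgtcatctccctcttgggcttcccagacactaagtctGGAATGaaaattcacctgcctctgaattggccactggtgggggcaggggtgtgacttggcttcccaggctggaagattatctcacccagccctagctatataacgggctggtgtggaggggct

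The coactivator genes carry the same letters, shown here as the 30 bases around the motif to compare them with the targets.
Yap1, chr9:8004720-8004749, minus strand: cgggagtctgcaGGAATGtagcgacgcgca
Wwtr1, chr3:57576029-57576058, minus strand: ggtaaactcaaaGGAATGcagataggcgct
The motif began 103 bases before the start of Ccn1, 65 before that of Amotl2, 210 and 123 before that of Ankrd1 and 141 before that of Yap1. Wwtr1 has 2 annotated starts, at 136 and 170 bases after the beginning of the same motif. All 6 windows of these 5 genes held it, as did 14.7% of the 32851 promoter windows of the same length. The 2 windows of Wwtr1 hold the same motif, and Ccn1, Ankrd1 and Amotl2 are known readouts of YAP, so these shares are no independent test. The AP-1 motif TGANTCA was in none of the 6 windows and in 7.81% of all, and the CArG box, the element of serum response factor, was in none and in 1.63%. The motifs were read on both strands and none overlapped another in these windows. A match describes the letters in the window and not binding. Among these genes, IPE was lowest by every probe set of Ccn1 and Amotl2. It was highest, by under 2-fold at the brightest probe set, for Yap1 and Wwtr1. The probe sets of Ankrd1 disagreed near the floors. Any link between the motif and these orders was not tested.

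Ccn5 (Wisp2), a growth-restraining member known from vascular smooth muscle, had the largest difference of the 10 genes. Its 1 probe set gave a signal of 123 in the iris, 2954 in the ciliary and 1895.5 in the retinal culture. CBPE was thus 24-fold and RPE 15.4-fold above IPE. Ccn5 ranked 22nd from the highest of 12432 genes in CBPE minus IPE and 26th of 12459 in RPE minus IPE. CBPE was 1.56-fold above RPE, a log2 difference of -0.64 for RPE minus CBPE against the SD of 0.29 between probe sets.

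Ccn3 (Nov), a member that often opposes Ccn2 in fibrosis, had the next largest difference. Its brighter probe set gave 108 in the iris, 1472 in the ciliary and 919 in the retinal culture, and the other gave 75, 1079.8 and 541.5. Both probe sets placed CBPE highest and IPE lowest, but they are annotated to the same source sequence and may not be separate evidence. The same holds for the pairs of Ccn4, Yap1 and Ankrd1 and for the brighter pair of Wwtr1. The brighter one put CBPE 13.7-fold and RPE 8.53-fold above IPE, and the other 14.4-fold and 7.22-fold. Ccn3 ranked 40th of 12432 genes in CBPE minus IPE and 65th of 12459 in RPE minus IPE. CBPE was above RPE by 1.6-fold and 1.99-fold.

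Ccn4 (Wisp1), a target of Wnt signalling, was higher in CBPE and RPE by similar amounts. Its brighter probe set gave 288 in the iris, 1238 in the ciliary and 1089 in the retinal culture, and the other 307, 1014 and 909.7. CBPE was 4.3-fold above IPE by the brighter probe set and 3.3-fold by the other, and RPE 3.78-fold and 2.96-fold. The log2 differences between RPE and CBPE, -0.18 and -0.16, were within the SD of 0.29 between probe sets. Ccn4 thus did not separate those 2 cultures at the precision of the probe sets.

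Ccn1 (Cyr61), a quickly induced ligand of integrins, was higher in CBPE and RPE than in IPE by all 4 of its probe sets, which disagreed on which of those 2 was highest. The probe set 1416039_x_at, the brightest, gave 852 in the iris, 3447 in the ciliary and 1486 in the retinal culture, and 1438133_a_at gave 523, 2018 and 1218. These 2 had CBPE highest, 4.04-fold and 3.86-fold above IPE and 2.32-fold and 1.66-fold above RPE, with RPE 1.74-fold and 2.33-fold above IPE. The dimmer probe sets had RPE highest: 1442340_x_at gave 55.7 in the iris, 106 in the ciliary and 197 in the retinal culture, and 1457823_at gave 53.7, 75.6 and 184. By these RPE was 3.53-fold and 3.42-fold above IPE and 1.86-fold and 2.43-fold above CBPE, and CBPE was 1.89-fold and 1.41-fold above IPE, under the 2-fold limit. Both dim probe sets are annotated to the same source sequence, which is not that of either bright probe set, so they may not be separate evidence. The 2-fold difference between RPE and CBPE therefore depends on the probe set taken, whereas IPE was lowest in each.

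**Figure D2:**
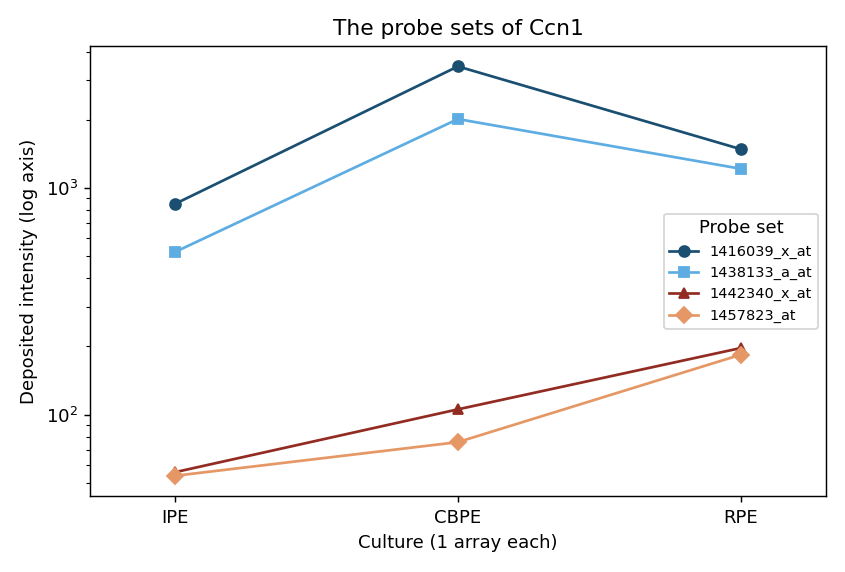
Deposited intensity (log axis) of the 4 probe sets of Ccn1 on the 3 arrays, 1 line per probe set. The bright pair peaks in CBPE, at 3447 and 2018, and the dim pair peaks in RPE, at 197 and 184.

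Ccn2 (Ctgf), the member best known as a mediator of TGF-β driven fibrosis, was bright in all cultures and, as deposited, differed least within the family. Its 1 probe set gave 6204 in the iris, 10615 in the ciliary and 6090.4 in the retinal culture. CBPE was 1.71-fold above IPE and 1.74-fold above RPE, under the 2-fold limit, and IPE and RPE differed by 1.02-fold. These values depended on the scaling of the arrays. After quantile normalization the log2 difference was -0.33 for CBPE minus IPE in place of 0.77, and -0.83 for RPE minus IPE in place of -0.03. No direction can be given for Ccn2 between IPE and CBPE, while RPE stayed under CBPE, by -0.80 as deposited and -0.50 after quantile normalization. The sixth member of the family, Ccn6, was at 7.7 in the iris, 27 in the ciliary and 16.8 in the retinal culture, above the floor in CBPE alone.

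Among the YAP readouts outside the family, Amotl2 was past 2-fold between CBPE and IPE, and Ankrd1 lay too near the floors to be read. Amotl2, an angiomotin that binds YAP and is itself a target, gave 479.6 in the iris, 1319.5 in the ciliary and 785 in the retinal culture by its 1 probe set. The ciliary signal was 2.75-fold above that of IPE and 1.68-fold above that of RPE, and RPE was 1.64-fold above IPE. The hybridisation controls had the same order and similar ratios, 2.58 and 1.57, and their part in this result was not tested. Its cultures thus followed the order of the bright Ccn1 probe sets. Ankrd1, a nuclear ankyrin repeat protein of stressed muscle, gave 29.4, 24.2 and 29.6 by one probe set and 24.8, 30.6 and 22 by the other, again in the order IPE, CBPE and RPE. All 6 signals were above the floors by little, and the probe sets ranked the cultures differently, so no difference could be read for Ankrd1.

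Ccn1, Ccn3, Ccn4, Ccn5 and Amotl2, 5 of the 10 genes, had the order CBPE over RPE over IPE by their brightest probe set, as did 26.2% of the 13035 genes above a floor on any array and the hybridisation controls. Yap1, Wwtr1 and Tead1 were highest in IPE, which held for 37.5% of all genes. None of the 3 was 2-fold apart between any cultures by its brightest probe set. As the arrays measure RNA from whole cultures, fewer cells of a type and less RNA per cell cannot be told apart.

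Yap1 gave 755 in the iris, 507 in the ciliary and 562 in the retinal culture by its brighter probe set, and 121, 95.2 and 83.6 by the other. IPE was 1.49-fold and 1.27-fold above CBPE and 1.34-fold and 1.45-fold above RPE. The 2 probe sets agreed on IPE as highest and disagreed on the order of CBPE and RPE. For Wwtr1 the brightest of 3 probe sets gave 1258, 1139 and 1045, so that IPE was 1.1-fold above CBPE and 1.2-fold above RPE, within the SD between probe sets. The second gave 147, 125 and 119, and the third 118, 48.9 and 93.1, in which IPE was 2.41-fold above CBPE. All 3 probe sets of Wwtr1 had IPE highest.

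Tead1, the DNA-binding partner, had the largest difference of these 3. It gave 989.8 in the iris, 581 in the ciliary and 557 in the retinal culture by its brighter probe set, 1.7-fold and 1.78-fold higher in IPE. Its other probe set was at 23.9 in IPE and under the floor in CBPE and RPE. The log2 differences, -0.77 and -0.83, exceeded the SDs of 0.49 and 0.45 between probe sets. With the arrays set to equal medians they were -1.02 and -1.04, just past the 2-fold limit.

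**Figure D3:**
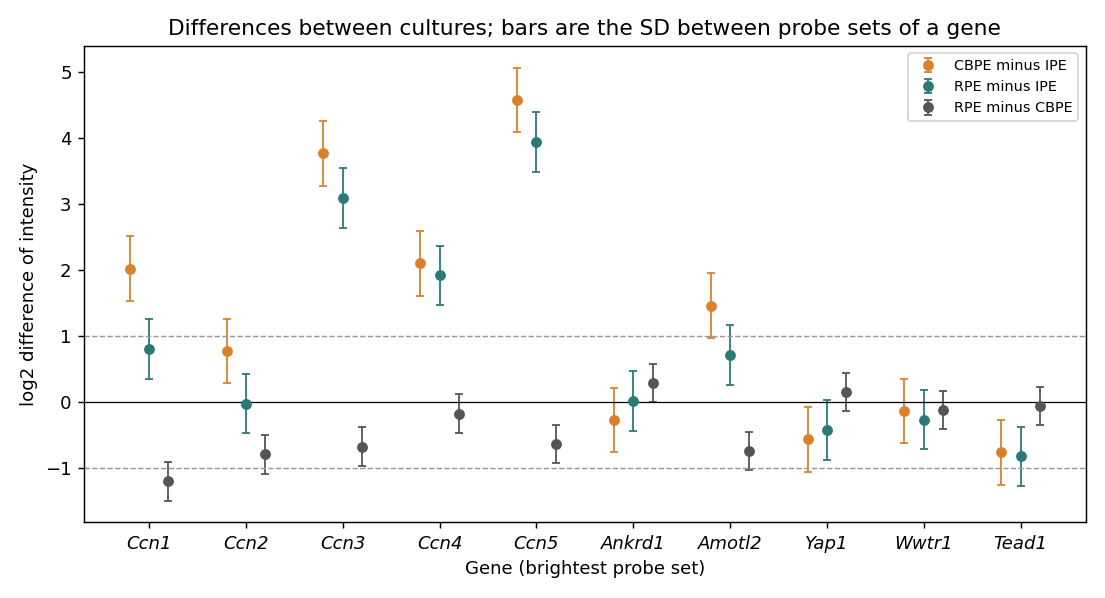
The log2 difference of each gene for CBPE minus IPE, RPE minus IPE and RPE minus CBPE, by the brightest probe set. Bars are the pooled SD between probe sets of a gene (0.49, 0.45 and 0.29), not an error between cultures, and dashed lines mark 2-fold. Ccn5 reaches 4.58 and 3.94, and Yap1, Wwtr1 and Tead1 lie between 0 and -0.83 against IPE.

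The iris array is shared by both differences from it, so they are given side by side. They were 4.58 and 3.94 for Ccn5, 3.77 and 3.09 for Ccn3 and 2.10 and 1.92 for Ccn4, for CBPE and RPE in that order. They were 2.02 and 0.80 for Ccn1 and 1.46 and 0.71 for Amotl2, by the brightest probe set, where CBPE lay further from IPE. For Ccn3, Ccn4 and Ccn5 both cultures were past 2-fold from IPE, and for Amotl2 only CBPE was. For Ccn1 this depended on the probe set, since the 3 others put RPE past 2-fold and the dim pair did not put CBPE there.

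**Figure D4:**
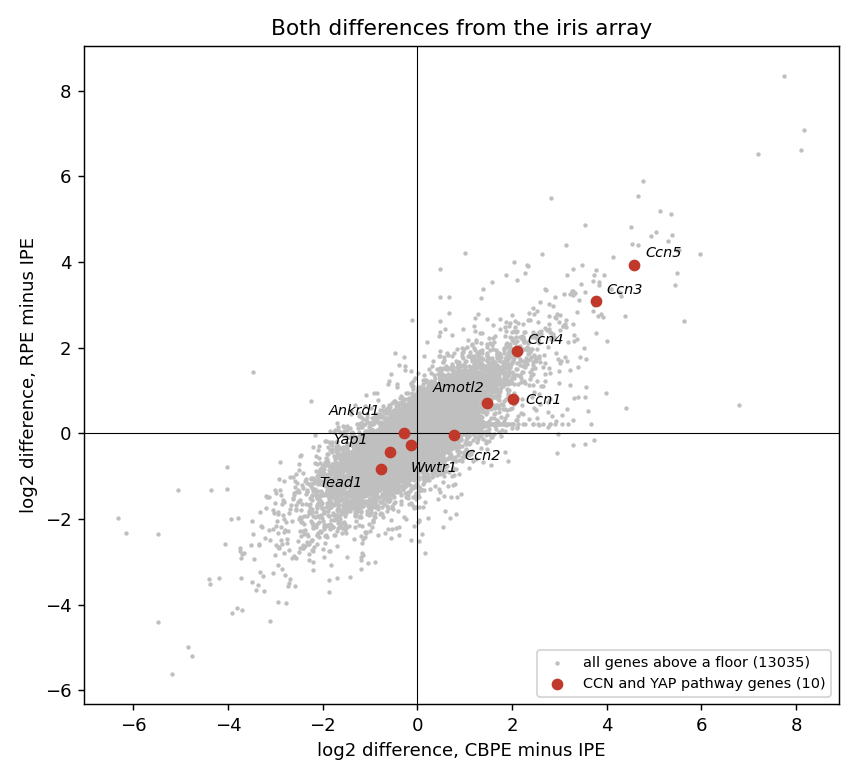
Log2 difference of CBPE minus IPE against RPE minus IPE for the 13035 genes above a floor (grey) and the 10 genes described here (red). The axes share the IPE array. Ccn5 and Ccn3 lie at the upper right, at 4.58 and 3.94 and at 3.77 and 3.09, and Yap1, Wwtr1 and Tead1 just under the origin.

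Nearness was ranked among the 10134 genes above the floor on all 3 arrays, leaving out those with clone or predicted-gene names. The genes whose pair of differences was nearest to that of the brightest Ccn1 probe set were Adam12, Timp3, Slc39a1, Pdlim3 and Dmpk. Their distances on the log2 scale were 0.025 to 0.14. Timp3, an inhibitor of matrix metalloproteinases, was at 1297 in the iris, 5102 in the ciliary and 2249 in the retinal culture. Nearest to Ccn2 were Notch2, Nos1, Tonsl, Agap1 and Clasp2, at distances of 0.019 to 0.036. Notch2, a receptor of the Notch pathway, was at 527, 899 and 511. Nos1 and Tonsl were close to the floors, at 19.3 and 19.6 in IPE. With 3 arrays such likeness rests on 2 differences only, and on the probe set taken for Ccn1 and the deposited scaling for Ccn2, whose differences moved with these choices. Neighbours under the other choices were not computed.

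Other target genes of YAP and TAZ did not share one direction. For this and the lists that follow, the shares over all genes were 12.2% higher and 12.5% lower in CBPE against IPE. They were 9.86% higher and 10.5% lower in RPE against IPE, and 3.42% higher and 4.38% lower in RPE against CBPE. Of 18 further genes of a commonly used YAP and TAZ target signature, 5 were 2-fold or more above their iris signal in CBPE and 5 under it, with a median log2 difference of -0.02 beside 0.033 over all genes (0.16 after quantile normalization and -0.28 with equal medians). The higher ones were Ccdc80, F3, Igfbp3, Foxf2 and Nuak2, and the lower ones Tgfb2, Myof, Nt5e, Dock5 and Fjx1. Tgfb2, a TGF-β ligand, was at 623 in the iris, 192 in the ciliary and 179 in the retinal culture. F3, which encodes tissue factor, was at 514 in the iris, 1858 in the ciliary and 379.7 in the retinal culture, high in CBPE alone. Ccdc80, a secreted matrix protein, was at 1090.1, 4087 and 3969, high in both CBPE and RPE like Ccn4. Myof, a membrane repair protein, was at 426, 197 and 155, highest in IPE. In RPE against IPE 3 of the 18 were higher and 5 lower, with a median of -0.38, and in RPE against CBPE 1 was higher and 4 were lower, with a median of -0.37. The targets thus differed from gene to gene in these arrays.

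The Hippo kinases and their scaffolds were mostly within 2-fold. Of 21 measured, 1 was 2-fold or more above its iris signal in CBPE and 4 under it. The median log2 difference was -0.36 (-0.16 after quantile normalization and -0.62 with equal medians). In RPE against IPE 1 was higher and 5 were lower, with a median of -0.34. The gene that was higher in both was Fat4, an atypical cadherin, at 175 in the iris, 719 in the ciliary and 919.9 in the retinal culture, 4.11-fold and 5.26-fold above IPE. Sav1, the scaffold of the Hippo kinases, was at 944, 508 and 244, so IPE was 3.87-fold above RPE. Taok1, a kinase upstream of Hippo, was at 362, 122 and 358, low in CBPE alone, and Amot, a relative of Amotl2, was at 269, 167 and 386. The effector kinase genes were closer: Lats1 was at 504, 338 and 314, and Lats2, itself a target, at 281, 201 and 132, 2.14-fold higher in IPE than in RPE. Against CBPE, 2 of the 21 were higher and 3 lower in RPE, with a median of 0.07.

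Of 7 further TEAD and VGLL genes, which encode DNA-binding partners and competing cofactors of YAP, 6 were above a floor. None was counted as 2-fold apart between CBPE and IPE. Vgll3 was at 1117 in the iris, 1103 in the ciliary and 684 in the retinal culture. Tead2 was at 217, 134 and 144, and thus highest in IPE like Tead1. Vgll4 was under the floor in the iris, at 22.4 in the ciliary and at 53.4 in the retinal culture, so RPE was at least 3.68-fold above IPE. Vgll2 was above the floor in IPE alone, at 34.5, and there at least 2.05-fold higher than in RPE and at least 1.71-fold higher than in CBPE. Both are bounds set by the floors, so a 2-fold difference from CBPE may be missed. Against CBPE, 1 of 5 measured was higher in RPE, Vgll4, and none lower.

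The actin-linked targets of serum response factor, a second route to Ccn1 and Ccn2, were mostly within 2-fold. The list of 15 genes also holds Srf, Mrtfa and Mrtfb themselves. Of the 15, 3 were 2-fold or more above their iris signal in CBPE and none under it. The median log2 difference of the 15 was 0.59, which was 0.33 with equal medians and turned to -0.06 after quantile normalization. Tpm2, a tropomyosin, was at 2279 in the iris, 8129 in the ciliary and 5444 in the retinal culture, Acta2 (smooth muscle actin) at 5496, 14299.6 and 9769, and Cnn1 (calponin) at 94.4, 267 and 243. Tpm2 and Cnn1 were also the 2 that in RPE exceeded their iris signal 2-fold. Srf itself, at 313, 199 and 126, was highest in IPE and lower in RPE, by 2.48-fold. The targets did not share one order: Acta2, Tpm2 and Cnn1 were lowest in IPE, whereas Vcl, at 2939, 3276 and 1712, was lowest in RPE. None of the 15 differed 2-fold between RPE and CBPE, with a median of -0.55.

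Ccn1 is also an immediate early gene, induced within minutes by serum and growth factors. Of 13 other immediate early genes measured, 4 were 2-fold or more above their iris signal in CBPE and 1 under it, with a median of 0.35. Fos was at 116 in the iris, 371 in the ciliary and 145 in the retinal culture, Klf2 at 19.9, 181 and 87.2 and Klf4 at 109, 256 and 215. Ier3 was within 2-fold of IPE in CBPE, at 650.3, 1006 and 483, and was 2.08-fold lower in RPE than there. In RPE against CBPE none was higher and 6 of the 13 were lower, beside 3.42% higher and 4.38% lower of all genes. The median was -0.82 (-0.96 after quantile normalization and -0.78 with equal medians), the direction of the bright Ccn1 probe sets. In RPE against IPE 2 were higher and 4 lower, with a median of -0.43.

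The receptors through which CCN proteins act were split. Of 11 measured integrin, proteoglycan and LRP genes, 2 were 2-fold or more above their iris signal in CBPE and 2 under it. The median was 0.48 (0.21 after quantile normalization and 0.22 with equal medians). These counts became 3 and 2 after quantile normalization and 2 and 3 with equal medians. Sdc4, a syndecan that binds Ccn1 and Ccn2 through heparan sulfate, was at 58 in the iris, 2508 in the ciliary and 640.1 in the retinal culture. The other that was higher was Itgb3, an integrin chain that pairs with Itgav, at 14.6, 68.7 and 20.1. Its iris signal was barely above the floor of 14.5. Itgb1, the common β chain, was at 1959, 926 and 907, and Itga6, its laminin-binding partner, at 321, 111 and 71.4, both highest in IPE. In RPE against IPE 1 was higher, Sdc4, and 2 were lower, with a median of -0.06. In RPE against CBPE none was higher and 3 were lower, Sdc4, Itgb3 and Itga5, with a median of -0.48. Itga5, the chain of the fibronectin receptor, was at 167 in the iris, 319 in the ciliary and 114 in the retinal culture.

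**Figure D5:**
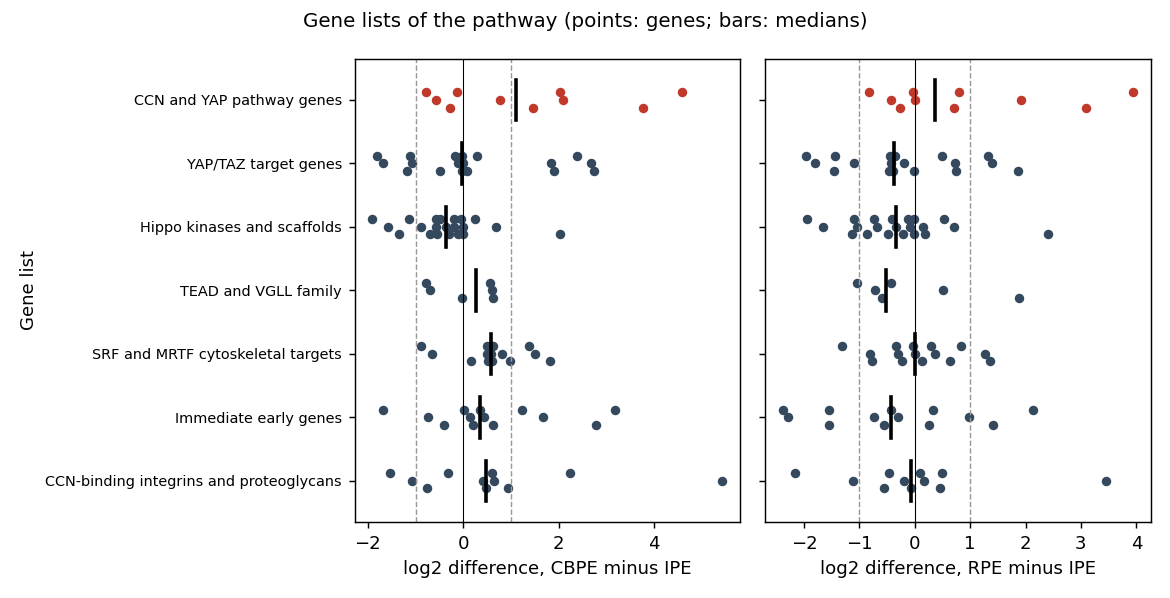
Log2 differences of single genes (points) and list medians (black bars) for CBPE minus IPE and RPE minus IPE, for the 10 genes described here (red) and 6 further lists; dashed lines mark 2-fold. The median of the 10 genes is 1.12 and 0.36, that of the further YAP and TAZ targets -0.02 and -0.38.

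By summed signal, fibroblast, smooth muscle, tendon, skeletal muscle and leukocyte markers were lowest in IPE, as Ccn3, Ccn4 and Ccn5 were. The endothelial sum, mostly Emcn, was lowest in RPE, and the glial sum, mostly Glul, was highest in IPE. Whether other cell types had a part in these results was not tested. The labels state that over 99% of IPE cells and over 95% of the cells in both other cultures were cytokeratin positive. Of 11 pigment epithelium markers, 10 were measured in CBPE against IPE, with 7 lower and 2 higher (the keratin genes Krt8, 5.48-fold, and Krt18, 2.93-fold), and 9 in RPE against IPE, with 7 lower and none higher. The summed signal of the 11 was 4917 in the iris, 1145 in the ciliary and 1780 in the retinal culture. Tyrp1, a melanin synthesis enzyme, was at 1388, 67.2 and 550 and Krt18 at 144, 422 and 219. Rpe65, which defines retinal pigment epithelium, was under the floor on all 3 arrays, RPE included. The 10 fibroblast markers summed to 33689, 65223 and 50697, none under a floor, and in CBPE 5 exceeded their iris signal 2-fold and 1 fell below it by as much (3 and 2 in RPE). This depended on the scaling. Their median log2 difference for CBPE minus IPE was 0.92 as deposited, 0.67 with equal medians and 0.14 after quantile normalization. After quantile normalization 2 were higher in CBPE and 1 lower. For RPE minus IPE the medians were 0.7, 0.48 and 0.04. Col1a2 was at 4828, 12392 and 10181. The 9 smooth muscle and pericyte markers summed to 7102, 20710 and 12974, the same order of cultures as Ccn3 and Ccn5, with 5 past 2-fold over IPE in CBPE and 2 under it (3 and 2 in RPE). Rgs5, a pericyte marker, was at 3974 in CBPE and 1416 in RPE. Among these markers Rgs5 and Cspg4 were under the floor in IPE, whereas Myh11 was highest there.

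The 5 tendon markers summed to 219 in the iris, 8465 in the ciliary and 7246 in the retinal culture, with Tnmd, Mkx and Thbs4 under the floor in IPE and all 5 past 2-fold in CBPE over IPE and 3 in RPE. Tnmd was at 4176 in CBPE and 1972.5 in RPE. Skeletal muscle markers, 8 of 9 under the floor in IPE, summed to 84, 1534 and 1611, with 4 of 4 measured past 2-fold in CBPE over IPE and 6 of 8 in RPE. Tendon and muscle markers thus had IPE lowest, as Ccn3, Ccn4 and Ccn5 did. The 8 leukocyte markers summed to 309, 2217 and 418 and the 8 endothelial markers to 818, 1501 and 312, both highest in CBPE, with Ptprc and Vwf under the floor on every array. Most of the endothelial sum was Emcn, at 745, 1115 and 211, and 5 of the 8 were under the floor in IPE and 5 in RPE. Among the others, Kdr and Tek were lower in IPE than in RPE, and Esam was under the floor in RPE alone. In CBPE over IPE 5 of 7 measured endothelial markers were past 2-fold and 0 lower. In RPE 1 of 4 was higher and 1 lower. Of the glial markers, 5 of 7 were on the array under 1 gene and summed to 2663, 368 and 830, most of it Glul, with Gfap and Sox10 under the floor in CBPE and RPE. Slc1a3 was highest in RPE, at 47.2 against 25.7 in IPE, and S100b was at 35.9, 27.4 and 30.6.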

How the data were processed

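The deposited table holds intensity values on a linear scale, 1 per probe set and array, as deposited by the authors. No source used here names the summary method or software. Each array had a 2% trimmed mean of 100.001, so a common scaling had been applied, and it was kept. Probe sets were named from the platform annotation of 2016, updated by gene identifier to RefSeq (GRCm38.p6). Of 35890 annotated probe sets, 932 with several genes were not named. Each array's floor is the higher of the median of its non-control probe sets and the brightest of 27 probe sets for absent bacterial transcripts. Dimmer signals were set to it before log2. A gene is represented by the probe set that is brightest on average (log2). The SD between probe sets pools genes with 2 or more probe sets above 100 on both arrays (1666, 1773 and 1693 genes).

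The members and lists were chosen with earlier results of these data known. Named besides the 10 genes are up to 4 genes per list that differ 2-fold, taken by mean signal, up to 3 markers per cell type and the 5 nearest genes. Other list genes were named after their values were seen. The calls were tested on simulated data. The changes set there were well past 2-fold and on bright genes, so this checks the code and not the precision of these arrays. The 6 alternatives are in the closing section. Python 3.11.15, numpy 2.4.6, pandas 2.3.3 and matplotlib 3.10.9 were used.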

Additional observations from a re-analysis of the deposited data

How the results depend on the processing

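Of 171 values of single genes recomputed under 6 alternatives, 2 turned a difference of 2-fold or more, and of the rest 160 moved by less than the SD between probe sets and 9 by more. The 2 are Ccn1 in RPE minus CBPE, from -1.21 to 1.28 when probe sets open to several transcripts were left out and to 0.06 when all probe sets of a gene were averaged. Among differences under 2-fold, 3 changed sign by more than the SD: Ccn2 in CBPE minus IPE (0.77 to -0.33, quantile normalization) and, with averaged probe sets, Wwtr1 (-0.12 to 0.25) and Ankrd1 (0.29 to -0.09) in RPE minus CBPE. Another 4, of Ankrd1 and Yap1, changed sign within it. Without the probe sets open to several transcripts 8 of the 10 genes kept a value (not Ccn3 and Amotl2), 2 exceeded IPE at least 2-fold in CBPE (5 before), Ccn1 going from 2.02 to 0.49, and the 3 that did so in RPE were Ccn1 (0.80 to 1.78), Ccn4 and Ccn5. With averaged probe sets Ccn1 joined Ccn3, Ccn4 and Ccn5 in RPE, at 1.40, making 4. Without the former probe sets 1 gene was higher in RPE than in CBPE (0 before) and 0 were lower (1 before). That last count was also 0 after quantile normalization and with averaged probe sets. With equal medians, Tead1 passed 2-fold, giving 1 gene lower than IPE in CBPE and 1 in RPE (0 before). That scaling moved the median log2 difference of all genes to -0.22 and -0.20, with 7.59% of genes higher and 18.5% lower than IPE in CBPE (12.2% and 12.5% as deposited) and 6.28% and 15.4% in RPE (9.86% and 10.5%). Quantile normalization moved it to 0.15 and 0.08. The medians of the gene lists under both scalings were computed after seeing the data. No paired analysis was possible because each culture has 1 array. Signals near the floors, such as those of Ankrd1, limit what can be read.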
